A study of Mus musculus with 16 samples.

Results

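Fos, Nr4a1, Klf4 and Maff are immediate early transcription factors, and their transcript levels were followed in whole lungs of mice in a model of experimental asthma. The 4 genes were taken by their symbols in the array annotation, and all 4 were among the 7276 genes that could be named and tested. They were selected on measured levels of these same arrays, with earlier results of them known, and which of the group differences served for it is not recorded. Their levels and differences are therefore given as a description, without a test.

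Each of 16 Affymetrix arrays held RNA of 1 whole-lung sample. Lungs were harvested on day 22, 1 day after the last exposure to ovalbumin (OVA), an egg protein that serves as the allergen, or to its control, phosphate-buffered saline (PBS). There were 4 arrays in each of 4 groups: BALB-RAG mice given OVA, BALB-RAG mice given PBS, BALB/c mice given OVA and BALB/c mice given PBS. BALB/c is an inbred laboratory strain, and the Rag proteins cut DNA for the assembly of antigen receptors, so that mature T and B cells do not form where they are missing. The labels give neither the Rag allele of the BALB-RAG line nor the age of the mice, and they do not say that replicates came from separate animals. The spread between arrays may therefore be technical.

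Immediate early genes are transcribed within minutes of a stimulus because the factors that switch them on, the serum response factor with its ternary complex partners and CREB, are already present and are activated by phosphorylation. Fos pairs with Jun proteins to form AP-1. Nr4a1 is an orphan nuclear receptor whose activity follows its amount. Klf4 is a zinc finger factor of the Kruppel-like family that is known from endothelium, epithelium and monocytes. Maff is a small Maf protein, which lacks an activation domain of its own and binds DNA as a partner of cap'n'collar factors such as Nfe2l2. In lung, genes of this class are known to respond to growth factors, cytokines and stretch.

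The promoters of the 4 members are shown because cyclic AMP response elements (CREs), the sites of CREB, are a known feature of this class. The windows run from 250 bases before to 50 bases after the annotated start in RefSeq, build GRCm38.p6, and are printed 5′ to 3′ on the gene's strand. Capitals mark each CRE core, TGACG or its reverse complement CGTCA.
Fos, chr12:85473640-85473939, plus strand: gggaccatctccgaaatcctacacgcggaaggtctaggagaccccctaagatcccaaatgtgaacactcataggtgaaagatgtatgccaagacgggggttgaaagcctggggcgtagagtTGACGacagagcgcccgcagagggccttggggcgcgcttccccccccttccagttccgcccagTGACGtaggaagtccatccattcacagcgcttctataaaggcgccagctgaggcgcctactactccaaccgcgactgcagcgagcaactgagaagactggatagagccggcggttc
Nr4a1, chr15:101266596-101266895, plus strand: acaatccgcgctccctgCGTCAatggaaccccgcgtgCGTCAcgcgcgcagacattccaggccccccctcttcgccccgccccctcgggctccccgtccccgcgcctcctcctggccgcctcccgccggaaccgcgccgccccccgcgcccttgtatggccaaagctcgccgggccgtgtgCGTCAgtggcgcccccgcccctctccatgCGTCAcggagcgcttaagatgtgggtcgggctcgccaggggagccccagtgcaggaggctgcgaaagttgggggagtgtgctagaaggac
Klf4, chr4:55532426-55532725, minus strand: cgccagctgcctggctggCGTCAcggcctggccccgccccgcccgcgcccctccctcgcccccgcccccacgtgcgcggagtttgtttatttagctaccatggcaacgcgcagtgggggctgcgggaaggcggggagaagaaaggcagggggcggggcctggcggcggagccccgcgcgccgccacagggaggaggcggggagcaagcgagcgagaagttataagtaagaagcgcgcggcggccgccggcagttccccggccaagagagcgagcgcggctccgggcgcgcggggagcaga
Maff, chr15:79347270-79347569, plus strand, the second of its 3 annotated starts: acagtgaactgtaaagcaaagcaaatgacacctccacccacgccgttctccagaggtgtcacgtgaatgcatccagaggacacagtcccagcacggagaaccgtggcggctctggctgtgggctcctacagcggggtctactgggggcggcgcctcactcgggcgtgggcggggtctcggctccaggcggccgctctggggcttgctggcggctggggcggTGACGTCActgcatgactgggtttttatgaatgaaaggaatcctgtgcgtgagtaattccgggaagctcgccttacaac
The Fos window held 2 CRE cores, whose first bases lay at −129 and −66 counted from the start, and the letters TATAAA at −33. The Nr4a1 window held 4 cores, 2 far from the start (−233 and −213) and 2 close to it (−69 and −40). The Klf4 window held 1, at −232. In the Maff window shown, 2 cores overlapped and formed 1 full CRE, TGACGTCA, that began at −29, while of its other annotated starts the third had 1 core at −122 and the first had none. Searched on both strands, the core occurred in 20.8% of 32851 RefSeq promoter windows of this length, the full CRE in 1.79% and TATAAA in 13.6%. Neither the AP-1 site TGANTCA, which 7.81% of the windows hold, nor the CArG box of the serum response factor, which 1.63% hold, was found in the 6 windows of the 4 members. A match here is a run of letters and not a measured binding site. The search saw only exact matches inside the windows, so a site further upstream or with a changed letter would be missed. The lack of a match is therefore not the lack of a site.

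All values below are log2 intensities, and differences are differences of mean log2 intensity, each also given as a fold where it is large. Probe sets hybridise with unequal strength, so levels are compared between arrays and not between genes. The SE of each difference comes from a fit with a single spread per gene, shared by the 4 groups. For Fos and Nr4a1 the spread was largest on BALB/c PBS arrays (SD 1.10 and 1.74). Their SE is therefore too narrow for comparisons with that group and too wide for comparisons without it.

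Fos, the partner of Jun in AP-1, was highest in lungs of BALB/c mice given PBS. On BALB-RAG arrays it measured 8.98, 8.28, 9.47 and 9.05 after OVA, against 8.28, 8.44, 7.86 and 8.54 after PBS (replicates 1 to 4). On BALB/c arrays it measured 9.82, 9.35, 9.82 and 8.30 after OVA, against 10.66, 10.03, 12.30 and 9.93 after PBS. Every BALB/c PBS array thus lay above the 12 others, and the third of them stood clear of its own group. Of all tested genes, 0.77% had every BALB/c PBS array above the 12 others. As the members were chosen on these arrays, that share is printed for scale only. The group means were 8.95 ± 0.49 on BALB-RAG OVA arrays, 8.28 ± 0.30 on BALB-RAG PBS arrays, 9.32 ± 0.72 on BALB/c OVA arrays and 10.73 ± 1.10 on BALB/c PBS arrays (SD, n = 4 each). In the order BALB/c PBS, BALB/c OVA, BALB-RAG OVA, BALB-RAG PBS, only the first step separated its groups, and the arrays of the next neighbours overlapped.

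Nr4a1, the nuclear receptor, had the widest spread of the 4 genes, and nearly all of it lay in 1 group. The BALB-RAG arrays read 7.04, 7.30, 7.69 and 6.93 after OVA, against 7.34, 8.05, 7.36 and 7.42 after PBS. The BALB/c arrays read 8.22, 7.46, 7.48 and 7.35 after OVA, against 10.06, 8.08, 12.24 and 10.94 after PBS. The SD among BALB/c PBS arrays was 1.74 around a mean of 10.33, compared with 0.34 around 7.24 on BALB-RAG OVA arrays, 0.34 around 7.54 on BALB-RAG PBS arrays and 0.40 around 7.63 on BALB/c OVA arrays. Arrays of the other 3 groups overlapped, and 3 of 4 BALB/c PBS arrays exceeded all 12 others. The exception was replicate 2, which lay below 1 BALB/c OVA array and 0.03 above the highest BALB-RAG PBS array.

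Klf4, the Kruppel-like factor, was the most evenly measured of the 4. Its level was 11.02, 11.20, 10.70 and 10.70 on BALB-RAG OVA arrays, against 10.42, 10.88, 10.44 and 10.15 on BALB-RAG PBS arrays. It was 10.73, 10.57, 10.21 and 10.45 on BALB/c OVA arrays, against 12.05, 11.22, 11.95 and 12 on BALB/c PBS arrays. All 4 BALB/c PBS arrays again lay above the 12 others (as for 0.77% of all tested genes), but replicate 2 lay close to the highest BALB-RAG OVA array. Group means were 10.91 ± 0.25 for BALB-RAG OVA, 10.47 ± 0.30 for BALB-RAG PBS, 10.49 ± 0.22 for BALB/c OVA and 11.81 ± 0.39 for BALB/c PBS. A second, dimmer probe set for Klf4 followed the first across the 16 arrays (Pearson r = 0.953), with means of 7.89, 7.61, 7.40 and 9.03 in the same order of groups. Of the other groups, BALB-RAG OVA stood highest on both probe sets; on the brighter one its arrays overlapped those of BALB/c OVA and of BALB-RAG PBS, and on the dimmer one they lay above both.

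Maff, the small Maf protein, was, on the probe sets used, the one member without overlap between the exposures on BALB-RAG arrays. After OVA it measured 6.65, 7.12, 6.59 and 6.41 on BALB-RAG arrays, against 5.72, 5.84, 5.69 and 5.07 after PBS. The BALB/c arrays ran the other way, with 6.46, 6.99, 5.51 and 6.67 after OVA, against 7.91, 7.71, 7.06 and 6.90 after PBS. Maff averaged 6.69 ± 0.30 on BALB-RAG OVA arrays, 5.58 ± 0.34 on BALB-RAG PBS arrays, 6.41 ± 0.64 on BALB/c OVA arrays and 7.39 ± 0.49 on BALB/c PBS arrays. The neighbours in the order BALB/c PBS, BALB-RAG OVA, BALB/c OVA, BALB-RAG PBS overlapped at each step. Only 2 of the 4 BALB/c PBS arrays, replicates 1 and 2, were above the 12 others.

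**Figure D1:**
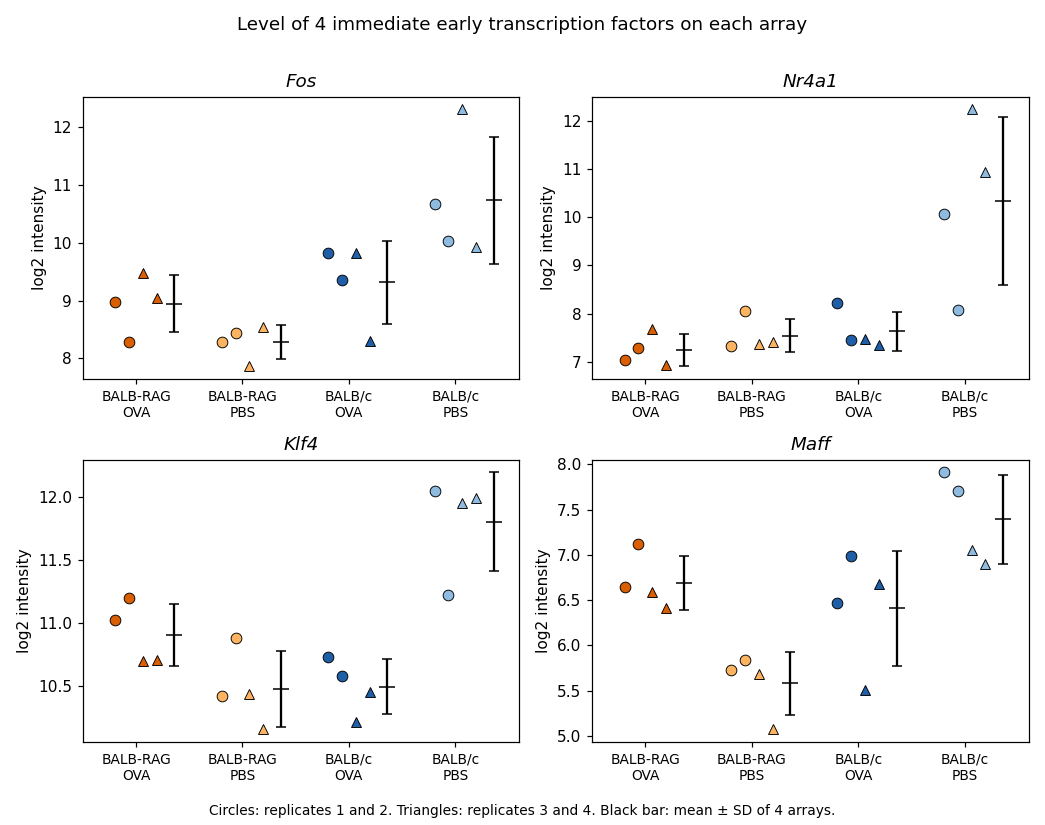
Log2 intensity of Fos, Nr4a1, Klf4 and Maff on each array (vertical axes, a scale for each gene) by group (horizontal axes); circles are replicates 1 and 2, triangles replicates 3 and 4, and black bars the mean ± SD of 4 arrays. BALB/c PBS has the highest mean for each gene, with an SD of 1.74 for Nr4a1 and 0.39 for Klf4, and for Maff the BALB-RAG OVA arrays lie above the BALB-RAG PBS arrays without overlap.

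The deviations of arrays from their group means followed replicates 1 and 2 against 3 and 4 (over all tested genes, a median r of 0.316 for pairs of arrays among replicates 1 and 2, 0.300 among replicates 3 and 4 and −0.316 across), and the labels do not say what this split is. Differences within each pair of replicate numbers are therefore given beside the pooled ones. Transcripts of T cells also went against part of the titles. The summed intensity of 10 T cell markers was 146.5 to 513.4 on BALB-RAG OVA arrays, 245.2 to 326.7 on BALB-RAG PBS arrays, 506.8 to 1190 on BALB/c OVA arrays and 258.4 to 368.8 on BALB/c PBS arrays. The T cell markers of BALB-RAG PBS arrays thus overlapped those of BALB/c PBS arrays, and among BALB-RAG OVA arrays replicate 2 alone held the high value. In both PBS groups the mean of these markers (4.60 and 4.67) lay close to the filter on low values at log2 4. The 8 tested B cell markers summed to 139.2 to 470.7, 227.3 to 317.8, 933.7 to 1711 and 521.7 to 598 in the same order of groups. By these sums the B cell markers separated the lines as titled. BALB-RAG OVA replicate 2 was high here too, with a mean log2 intensity of 5.54, against 3.74 to 3.82 on the other arrays of its group. Because the T cell markers did not separate the lines, the name BALB-RAG is used here for what the titles call so. The tissue itself matched its label, with 10 alveolar epithelial markers summing to 39950 or more on each array.

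In BALB/c lungs all 4 members were lower after OVA than after PBS, by 1.41 ± 0.46 for Fos (SE, 2.66-fold), 2.70 ± 0.58 for Nr4a1 (6.52-fold), 1.32 ± 0.20 for Klf4 (2.49-fold) and 0.99 ± 0.30 for Maff (1.98-fold). The arrays did not overlap for Fos and Klf4, and they overlapped for Nr4a1 and Maff. Of all tested genes, 9.24% had all 4 OVA arrays below all 4 PBS arrays. Since any of the contrasts may have served to choose the 4 genes, such shares are printed here for scale and nothing is read from the members' counts. The replicate pairs gave unequal sizes for Fos and Nr4a1. Within replicates 1 and 2 the OVA minus PBS difference was −0.76 for Fos and −1.24 for Nr4a1, and within replicates 3 and 4 it was −2.06 and −4.17. For Klf4 the values were −0.99 and −1.65, and for Maff −1.08 and −0.89. BALB/c PBS replicate 3, the array with the highest Fos and Nr4a1, carried much of this: without it the differences were −0.89 for Fos and −2.07 for Nr4a1. In bulk tissue, fewer cells of a type and less RNA per cell cannot be told apart.

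On BALB-RAG arrays the members did not move together between the exposures. OVA minus PBS was 1.11 ± 0.30 for Maff (SE, 2.16-fold higher), 0.67 ± 0.46 for Fos, 0.43 ± 0.20 for Klf4 and −0.30 ± 0.58 for Nr4a1. Maff alone separated its groups, on a background of 2.67% of tested genes with all 4 OVA arrays above all 4 PBS arrays, and it did so to the same extent in both replicate pairs (1.10 within replicates 1 and 2 and 1.12 within replicates 3 and 4). For Fos, whose arrays overlapped, replicates 1 and 2 gave 0.27 and replicates 3 and 4 gave 1.06. The second Klf4 probe set gave a difference of 0.28 with no overlap. Without BALB-RAG OVA replicate 2, whose lymphocyte transcripts go against its title, the differences were 0.97 for Maff, 0.89 for Fos, 0.33 for Klf4 and −0.32 for Nr4a1.

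The response to OVA thus had opposite signs in the 2 lines for 3 of the 4 members. Every OVA array lay above its PBS mean on BALB-RAG arrays and below it on BALB/c arrays for Klf4 and Maff, and likewise for Fos, where the lowest BALB-RAG OVA array was at the PBS mean to 2 decimals. The share of all tested genes with this pattern is not given, so nothing is read from the count of members. The response on BALB-RAG arrays minus that on BALB/c arrays was 2.10 ± 0.43 for Maff, 1.75 ± 0.29 for Klf4, 2.08 ± 0.64 for Fos and 2.40 ± 0.83 for Nr4a1 (SE). In replicates 1 and 2 and in replicates 3 and 4 it was 2.19 and 2.01 for Maff, 1.44 and 2.05 for Klf4, 1.03 and 3.12 for Fos and 0.71 and 4.09 for Nr4a1. The pairs of replicates were thus closest for Maff and furthest apart for Nr4a1.

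After PBS all 4 members were lower on BALB-RAG than on BALB/c arrays. BALB-RAG minus BALB/c was −2.45 ± 0.46 for Fos (5.47-fold lower in BALB-RAG), −2.79 ± 0.58 for Nr4a1 (6.91-fold), −1.33 ± 0.20 for Klf4 (2.52-fold) and −1.82 ± 0.30 for Maff (3.52-fold). The groups did not overlap for any of the 4, as was the case in this direction for 5.44% of tested genes. This comparison shares the BALB/c PBS arrays with that of OVA and PBS in BALB/c lungs, so the 2 sets of differences are not independent. Without BALB/c PBS replicate 3 the differences were −1.93 for Fos and −2.15 for Nr4a1.

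After OVA the lines did not separate for any member on the probe sets used: BALB-RAG minus BALB/c was −0.37 ± 0.46 for Fos, −0.39 ± 0.58 for Nr4a1, 0.41 ± 0.20 for Klf4 and 0.28 ± 0.30 for Maff. Of all tested genes, 13.3% had all 4 BALB-RAG arrays higher and 13.6% all 4 lower. The sign of the Fos difference was unsettled, at −0.95 within replicates 1 and 2 and 0.20 within replicates 3 and 4. The second Klf4 probe set gave 0.49, with no overlap of the groups. Without BALB-RAG OVA replicate 2 the Fos difference was −0.15, that of Nr4a1 −0.41, that of Klf4 0.32 and that of Maff 0.14.

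**Figure D2:**
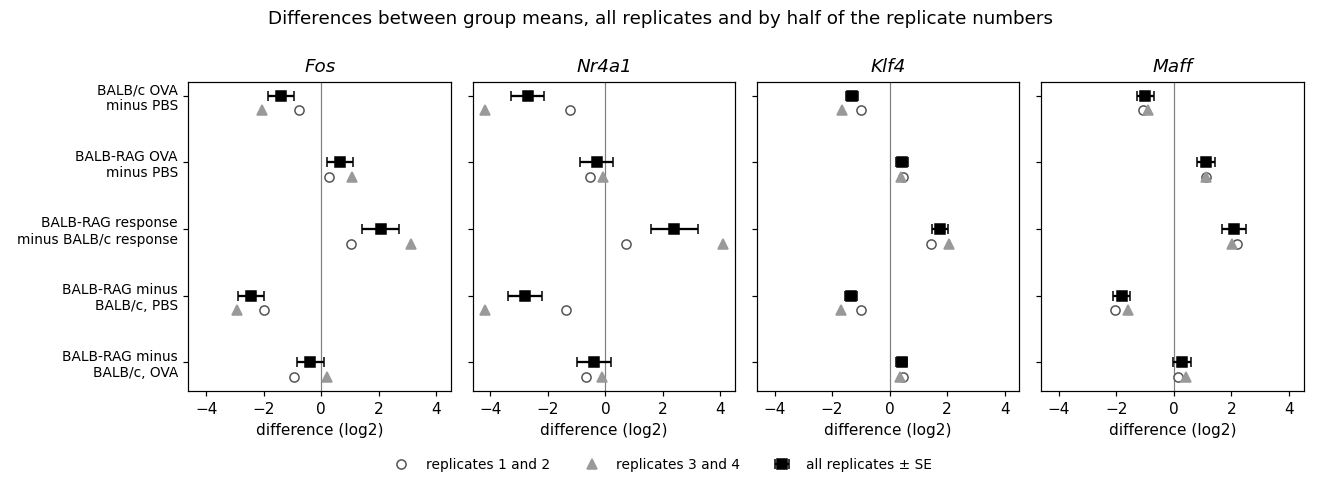
Differences between group means in log2 intensity (horizontal axes) for the 5 comparisons (rows) and the 4 members (panels); black squares with bars are all replicates ± SE, open circles replicates 1 and 2, and grey triangles replicates 3 and 4. For Nr4a1 the BALB/c difference between OVA and PBS is −1.24 within replicates 1 and 2 and −4.17 within replicates 3 and 4, whereas for Maff the BALB-RAG difference is 1.10 and 1.12.

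Across single arrays the 4 genes did not all follow each other. Over all 16 arrays Fos and Nr4a1 had a Pearson r of 0.816 (Spearman rho 0.771), Nr4a1 and Klf4 0.831 (rho 0.50), and Klf4 and Maff 0.754 (rho 0.815). Without the BALB/c PBS group, over the 12 other arrays, r was 0.307 for Fos and Nr4a1 and 0.0134 for Nr4a1 and Klf4, but 0.712 for Klf4 and Maff. Within groups, by deviations from the group means, Nr4a1 went with Fos (r = 0.615) and with Klf4 (0.619), while Maff went against Fos (−0.393) and Nr4a1 (−0.306). The values for Nr4a1 rest mainly on the BALB/c PBS arrays, where its SD was 1.74, against 0.34 to 0.40 in the other groups. Among BALB/c PBS arrays, replicate 3 was the highest array for Fos and Nr4a1 and replicate 1 for Klf4 and Maff. These correlations describe 16 arrays that share 4 group means and the split by replicate number, and they carry no test.

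The tested genes whose levels most resembled each member over the 16 arrays, out of 7275 others, were partly immediate early genes as well. For Fos they were Ier2 (r = 0.894), a small nuclear protein of the same class, Hspa4l (0.836), Nr4a1 (0.816), Mbd1 (0.810) and Dll1 (0.798). For Nr4a1 they were the zinc finger factor Egr3 (0.890), Bcl6b (0.890), Egr1 (0.887), the heat shock cochaperone Dnajb1 (0.880) and Kcne4 (0.879). For Klf4 they were Irx2 (0.879), Sertad1 (0.869), the ephrin receptor Epha2 (0.867), Csrnp1 (0.849) and the survival protein Mcl1 (0.840). For Maff they were its family member Mafk (0.852), Mta3 (0.826), Socs2 (0.804), Slc3a2 (0.797) and the vasodilator peptide Adm (0.795). Ranked by deviations within groups, Egr3 (0.897) and Egr1 (0.867) came first for Nr4a1, and Ier2 (0.744) stayed among the first 5 for Fos, behind Sharpin (0.831), Ciita, Tlcd1 (0.813) and Ddhd1 (0.790). For Klf4 that ranking began with the serum response factor coactivator Mrtfb (0.858), and for Maff with Gar1 (0.895) and Tnfrsf12a (0.877). The places of Egr3 and Egr1 rest mainly on the BALB/c PBS arrays. There their SD was 2.43 and 1.62, against at most 0.55 and 0.25 in the other groups.

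A wider list of 50 immediate early genes was then set beside the members. Of these, 32 were tested, 5 lay under the filter on low values (Fosb, Fosl1, Fosl2, Nr4a3 and Arc) and 13 had no placed probe set. BALB/c PBS had the highest group mean for 16 of the 32 (50%), as it had for 19.1% of all tested genes.

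In BALB/c lungs 7 of the 32 fell after OVA and 3 rose (limma, adjusted p under 0.05 over all 7276 genes), and the median difference was −0.20, against 2.2e-05 over all tested genes. Of all tested genes 15.5% were called, 8.73% as higher and 6.78% as lower. Those that fell included Jun, the partner of Fos, by 0.84 ± 0.14 (adjusted p = 0.000587), and Ier2 by 1.01 ± 0.21 (adjusted p = 0.00403). Cebpd, an acute phase factor of the C/EBP family, fell by 1.40 ± 0.26 (adjusted p = 0.00142), and Errfi1, a feedback inhibitor of the epidermal growth factor receptor, fell by 1.58 ± 0.29 (adjusted p = 0.00168). Errfi1 measured 10.06, 9.68, 10.35 and 9.92 after OVA, against 11.61, 10.53, 12.13 and 12.07 after PBS, without overlap. Klf6, Csrnp1 and Mcl1 fell too, and each of these calls was lost in 4 or 5 of 16 fits that left out an array. The 3 that rose are known from activated leukocytes: Rgs1, a regulator of G protein signalling, by 3.65 ± 0.49 (adjusted p = 0.000139), the repressor Bhlhe40 by 1.5 ± 0.21 (adjusted p = 0.000182) and the zinc finger factor Egr2 by 1.43 ± 0.34 (adjusted p = 0.0101). For Egr2 the groups overlapped, the difference was 2.52 within replicates 1 and 2 and 0.33 within replicates 3 and 4, and the call was lost with only the 8 BALB/c arrays in the fit. Markers of leukocytes moved with these 3: 5 of 6 tested macrophage markers, 6 of 10 T cell markers and 3 of 8 B cell markers were higher after OVA, with medians of 2.08, 1.18 and 1.27, as was 1 of 2 eosinophil markers (Rnase2a, by 6.95, adjusted p = 6.95e-08); their part in these rises was not tested. Within replicates 1 and 2 alone 3 of the 32 were called higher and 1 lower, and within replicates 3 and 4 alone 3 higher and 10 lower.

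The Egr genes nearest to Nr4a1 in pattern did not pass the test. Egr1 measured 7.60, 7.60, 8.03 and 7.84 on BALB/c OVA arrays, against 8.02, 7.17, 10.91 and 9.12 on BALB/c PBS arrays (difference −1.04, adjusted p = 0.218). Egr3 measured 6.09, 5.86, 4.85 and 5.44 after OVA, against 6.27, 3.95, 9.28 and 8.62 after PBS (−1.47, adjusted p = 0.253). For both, as for Nr4a1, replicates 3 and 4 of BALB/c PBS were high and replicate 2 was the lowest of its group.

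On BALB-RAG arrays 2 of the 32 rose after OVA and 0 fell (limma; 7 and 1 at an unadjusted p under 0.05), with a median of 0.05, against 0.02 over all tested genes; of all tested genes, 0.165% were called, 0.137% as higher and 0.0275% as lower. Cebpd rose by 1.52 ± 0.26 (limma, adjusted p = 0.0213). It measured 10.58, 10.30, 10.36 and 10.48 after OVA, against 8.63, 9.60, 9.11 and 8.31 after PBS. Ccn2, the matrix-associated connective tissue growth factor, rose by 1.15 ± 0.18 (adjusted p = 0.0120). Both sets of arrays were apart, but the calls were lost in 4 and 3 of the 16 fits without an array, and within either replicate pair no gene of the list was called.

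The difference of the 2 responses was past the threshold for 11 of the 32, with 9 positive and 2 negative; of all tested genes 8.49% were, 3.86% positive and 4.63% negative. The median was 0.20, against 0.01 over all tested genes. Within replicates 1 and 2 alone 4 were called (2 in each direction), and within replicates 3 and 4 alone 6, all positive. The largest positive ones were Cebpd at 2.92 ± 0.36 (adjusted p = 0.000131), Errfi1 at 2.70 ± 0.42 (adjusted p = 0.000808) and Csrnp1, a nuclear protein, at 2.49 ± 0.52 (adjusted p = 0.00726). Btg2, an antiproliferative cofactor, differed by 1.73 ± 0.43 (adjusted p = 0.0201). Ccn2, Jun, Mcl1, Ier2 and Klf6 differed by 1.40, 0.99, 0.71, 1.06 and 0.94 (the calls for Ier2 and Klf6 held in only 6 and 5 of 16 fits without an array). Bhlhe40 and Rgs1 gave −1.44 (adjusted p = 0.00678) and −3.30 (adjusted p = 0.00803). All 9 positive ones had the same signs as Fos, Klf4 and Maff, lower after OVA in BALB/c and higher after it on BALB-RAG arrays. Genes called for a positive difference of responses tend to have such signs. The BALB-RAG rise was as small as 0.05 for Ier2 and 0.14 for Jun, and among the 9 it passed the test alone only for Cebpd and Ccn2.

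After PBS, 9 of the 32 were lower on BALB-RAG than on BALB/c arrays and 0 were higher (limma; 19 and 1 at an unadjusted p under 0.05). A negative difference was found for 30 of the 32, with a median of −0.57 against −0.01 over all tested genes, of which 3.9% were called, 1.97% as higher and 1.94% as lower. The difference was −1.67 ± 0.30 for Btg2 (adjusted p = 0.00620), −1.67 ± 0.26 for Cebpd (adjusted p = 0.00189), −1.22 ± 0.21 for Ier2 (adjusted p = 0.00435) and −1.79 ± 0.37 for Csrnp1 (adjusted p = 0.0123). It was −1.48 for Errfi1, −1.04 for Tnfaip3, the ubiquitin-editing brake on NF-kB, and −0.59 for the survival protein Mcl1. Jun and Egr2 differed by −0.55 and −1.37, with calls that were lost in 6 and 7 of 16 fits without an array. With only the 8 PBS arrays in the fit, 3 of the 32 were called, as within replicates 1 and 2 alone, while 7 were called within replicates 3 and 4 alone, all of them lower. Egr3 had the largest difference of the list, −2.80 ± 0.79, and did not pass (adjusted p = 0.0639).

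After OVA the list split, with 5 higher and 9 lower on BALB-RAG than on BALB/c arrays and a median of −0.24, against 0.01 for all genes, of which 23.8% were called, 11.6% as higher and 12.1% as lower. Cebpd, Errfi1 and Ccn2 were higher by 1.25, 1.22 and 1.08 (adjusted p = 0.00195, 0.00648 and 0.000398), and Jun and Klf6 by 0.44 and 0.58. The difference was −3.96 for Rgs1 (adjusted p = 3.65e-05) and −2.82 for Egr2 (adjusted p = 3.12e-05). For Bhlhe40, Pim1, Socs3, Tnfaip3, Junb, Ier5 and Trib1 it lay between −1.49 and −0.51. In the same comparison 8 of 10 T cell markers, 7 of 8 B cell markers and 5 of 6 macrophage markers were called lower, with medians of −1.84, −2.47 and −2.08, and their part in these differences was not tested.

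**Figure D3:**
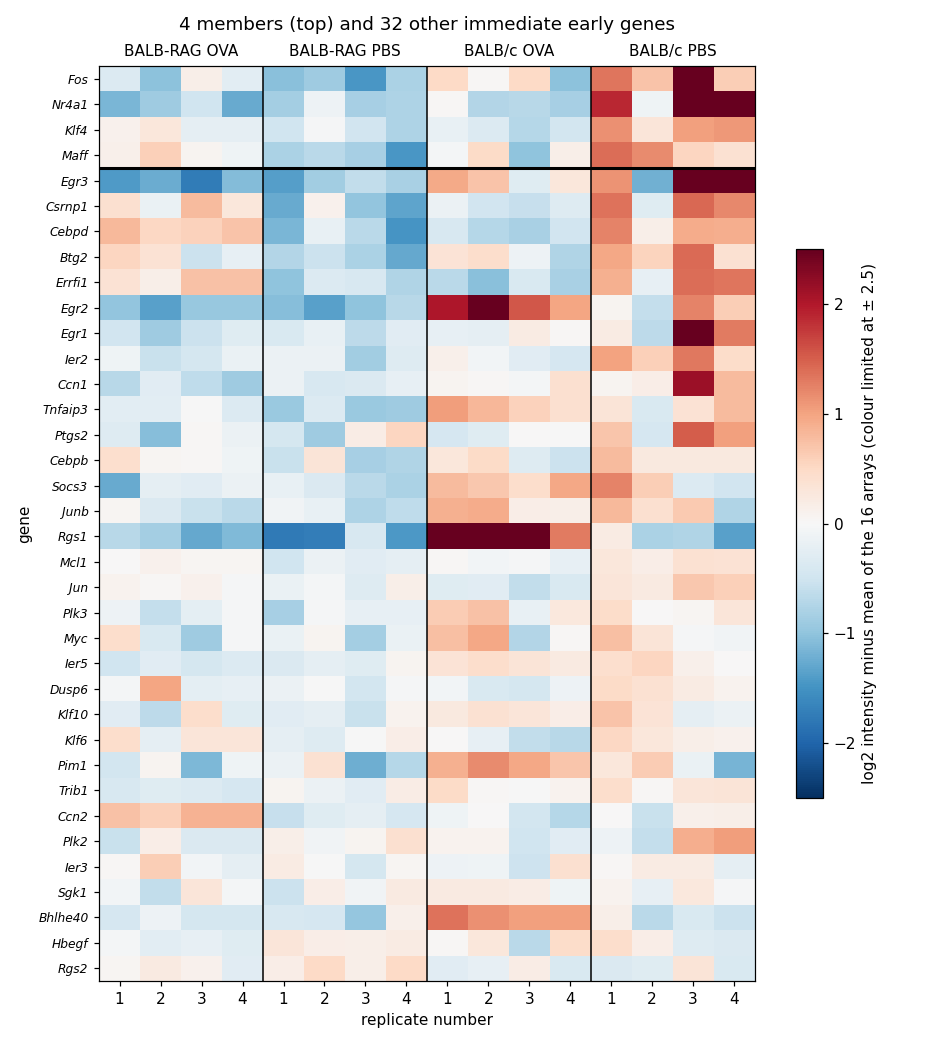
Log2 intensity of the 4 members (above the black line) and 32 other tested immediate early genes (rows) on each array (columns, by group and replicate number), as the difference from the mean of the 16 arrays; colour is limited at ± 2.5. BALB/c PBS replicates 1, 3 and 4 are red for Nr4a1, Egr3, Csrnp1 and Errfi1, and replicate 2 is paler or blue. Rgs1 and Bhlhe40 are instead red on BALB/c OVA arrays, and Egr2 is red there and on BALB/c PBS replicates 3 and 4.

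Partners and relatives of the members gave lists of only 2 to 8 tested genes, and the shares of all tested genes called in each comparison are those given above. Of 12 genes listed for the AP-1 family, 4 were tested. Jun is described above, and Junb was lower on BALB-RAG than on BALB/c arrays after OVA (−0.91, adjusted p = 0.0413), a call that was lost in 6 of 16 fits without an array and with no filter on low values. Batf and Atf2 were not called. The NR4A list of 5 genes left only the retinoid X receptors Rxra and Rxrb to test, and neither was called in any of the 5 comparisons (limma; 0 also at an unadjusted p under 0.05). Among 7 tested Kruppel-like factors of 13 listed, 2 fell after OVA in BALB/c, Klf6 and Klf7, the second by 1.17 (adjusted p = 0.0118), with a median of −0.28. After OVA 3 of the 7 (Klf6, Klf7 and Klf9) were higher on BALB-RAG than on BALB/c arrays, with calls for Klf6 and Klf7 that were lost in 5 of 16 fits without an array. Klf9, which glucocorticoids induce, differed there by 1.45 (adjusted p = 0.000653). Among 6 tested of 12 Maf, cap'n'collar and Bach genes, 0 were called by limma between OVA and PBS in either line (1 lower in BALB/c at an unadjusted p under 0.05). Mafk, the nearest in pattern to Maff, measured 7.71, 7.66, 7.51 and 7.81 on BALB/c OVA arrays, against 8.40, 8.29, 7.89 and 7.88 on BALB/c PBS arrays, without overlap and with an adjusted p of 0.0585. Nfe2l2, the main cap'n'collar factor of the oxidative stress response, was lower on BALB-RAG than on BALB/c arrays after PBS (−0.52, adjusted p = 0.0257, lost in 4 of 16 fits without an array). Of 8 tested targets of cap'n'collar and small Maf dimers, 0 were called in either line between OVA and PBS or between the lines after PBS (limma; 2, 1 and 2 at an unadjusted p under 0.05), and 3 (Gclc, Srxn1 and Gsr, enzymes of glutathione and peroxiredoxin metabolism) were lower on BALB-RAG than on BALB/c arrays after OVA.

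Of the 17 tested upstream factors (serum response factor partners, CREB family and MAP kinases; 23 listed), 1 changed after OVA in BALB/c and 0 changed on BALB-RAG arrays (limma; 4 and 2 at an unadjusted p under 0.05), while 15.5% and 0.165% of all tested genes were called after adjustment. The 1 was Crem, a CREB relative that is itself induced through CREs, which fell by 0.69 (adjusted p = 0.0217, lost in 6 of 16 fits without an array). Crem was also lower on BALB-RAG than on BALB/c arrays after PBS (−1.14, adjusted p = 0.00339), and its level there was 5.39, 5.41, 5.80 and 5.78 on BALB-RAG arrays, against 6.84, 7.03, 6.12 and 6.94 on BALB/c arrays. The order of groups for Crem was thus like that of the members at the top, with BALB/c PBS highest.

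Chaperone transcripts went with the members only in part, mainly in the difference between the lines after PBS. Heat shock and stress chaperones were lower on BALB-RAG than on BALB/c arrays after PBS, with 7 of 12 tested called and a median of −0.83, against 1.94% of all tested genes called lower. Hspa1b measured 7.79, 8.63, 8.74 and 7.96 on BALB-RAG PBS arrays, against 11.17, 11.60, 11.99 and 11.68 on BALB/c PBS arrays (−3.33 ± 0.44, adjusted p = 0.000632). Hsph1 differed by −2.23 ± 0.26 (adjusted p = 0.000251). These differences between the lines were present after OVA too, with 6 of 12 lower and a median of −0.55, against 12.1% of all tested genes, where the 4 members overlapped between the lines. Between OVA and PBS in BALB/c lungs 1 of the 12 was called, Hsp90aa1 (−0.52, adjusted p = 0.0109), and on BALB-RAG arrays 0 (limma; 6 and 0 at an unadjusted p under 0.05). The summed intensity of the 12 chaperones was 16040 to 18660 on BALB-RAG OVA arrays, 17810 to 21110 on BALB-RAG PBS arrays, 23810 to 32580 on BALB/c OVA arrays and 31130 to 38490 on BALB/c PBS arrays.

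Markers of several cell types differed between the groups as well. For scale, 6.78% of all tested genes were called lower after OVA in BALB/c. Between the lines after PBS, 1.94% were called lower and 1.97% higher on BALB-RAG arrays. The 11 tested endothelial markers summed to 11110 to 12750 on BALB-RAG OVA arrays, 11580 to 13140 on BALB-RAG PBS arrays, 7699 to 12180 on BALB/c OVA arrays and 15430 to 16770 on BALB/c PBS arrays, so that BALB/c PBS was highest here as well. In BALB/c 6 of the 11 fell after OVA (Cldn5, Tek, Flt1, Ramp2, Egfl7 and Eng), and 1, Cldn5, was lower on BALB-RAG than on BALB/c arrays after PBS. Of 6 tested club cell markers, 5 fell after OVA in BALB/c, and their sum was 37620 to 39510 on BALB-RAG OVA arrays, 32140 to 37830 on BALB-RAG PBS arrays, 17440 to 25640 on BALB/c OVA arrays and 31700 to 37110 on BALB/c PBS arrays. Cardiac muscle markers summed to 5165 to 16600 and 4749 to 21580 on BALB-RAG OVA and PBS arrays, against 1420 to 3187 and 3324 to 4319 on BALB/c OVA and PBS arrays. Adipose markers were likewise higher on BALB-RAG arrays after PBS, with 3 of 3 called. Of the 5 tested neutrophil markers 0 were called by limma in any comparison (at most 1 in each at an unadjusted p under 0.05). Their level was uneven within the PBS groups, however. Their mean log2 intensity was 8.56 on BALB/c PBS replicate 2, against 5.51 to 7.48 on the other arrays of that group. On BALB-RAG PBS replicate 2 it was 8.69, against 5.57 to 6.09 on the others. The part of these transcripts in the levels of Fos, Nr4a1, Klf4 and Maff was not tested.

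**Figure D4:**
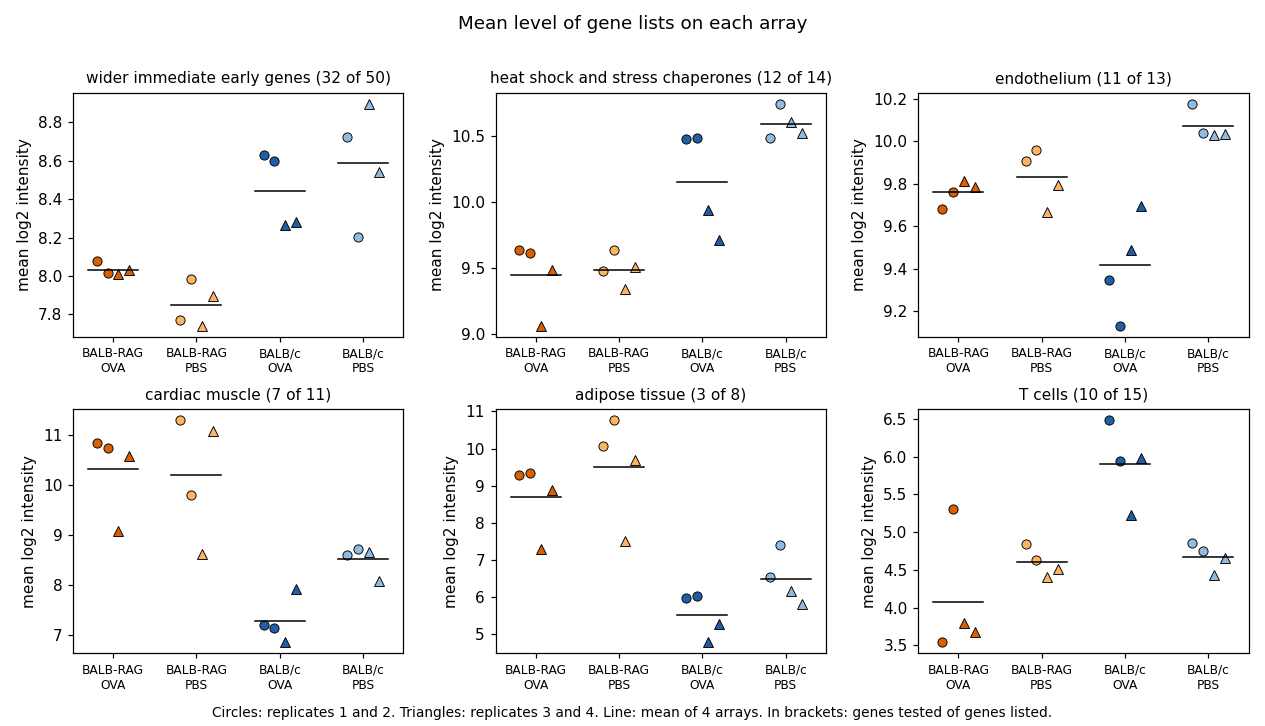
Mean log2 intensity (vertical axes, a scale for each panel) of the tested genes of 6 lists on each array, by group; circles are replicates 1 and 2, triangles replicates 3 and 4, lines the mean of 4 arrays, and brackets give the genes tested of those listed. Wider immediate early genes, chaperones and endothelial markers have their highest group mean in BALB/c PBS, whereas cardiac and adipose markers are highest on BALB-RAG arrays and T cell markers on BALB/c OVA arrays.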

How the data were processed

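Whole lung RNA was measured on 16 Affymetrix arrays. Per the labels' protocols TRIZOL was used for the isolation and 6 µg of total RNA for biotin labelling. The authors deposited 1 table of intensity values on a linear scale (2.32 to 35181), made with GCRMA per the submitters' processing notes, a method that includes background correction and quantile normalisation; no version of it is given in the sources used here. Log2 was taken, with no further normalisation. Array medians were 18.2 to 20.5 in intensity, no 2 columns were identical, and the number of arrays limits the precision.

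Probe set labels in the table do not belong to the values beside them. Values were taken 64 rows above the label for 4000 labels, 47 rows below it for 7500 and 16168 rows below it for 2800, and other labels were dropped. For the second stretch, which holds Fos, the shift handed down with the gene list was 47 rows above; probe sets of the same gene then had a median r of 0.0272 over 637 pairs, against 0.618 at 47 rows below, so 47 rows below was used, a choice made after seeing the data. In the other stretches the median r was 0.666 and 0.630, the highest of the shifts scanned. Every gene name here rests on this realignment. Of the 14300 labels placed, 13146 had 1 symbol and were used. A gene was kept if it was over log2 4 on 4 or more arrays; of several probe sets the one with the highest mean was used, which left 7276 genes.

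Groups came from the titles. Limma 3.58.1 in R 4.3.3 fitted the differences (4 group means, 16 arrays, empirical Bayes), with p adjusted over all tested genes by the Benjamini-Hochberg method at 0.05, and the fit was tested on simulated data. The simulated arrays were independent, with the same spread in every group. They therefore do not check the calls under unequal spreads or the split by replicate number. The members, lists and tests were chosen with earlier results of these data known. Named genes are the members, the called genes of the immediate early list or else up to 4 with the smallest p, up to 3 per comparison of each other list, and for each member the 5 genes of highest r by level and by deviation. Alternatives changed the filter, offset, scaling, probe set choice, labels, arrays fitted and replicates.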

Additional observations from a re-analysis of the deposited data

Results flagged for a closer look

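For 3 members the responses to OVA had opposite signs in the lines, every OVA array lying above the PBS mean of its line on BALB-RAG arrays and below it on BALB/c arrays. For Fos the lowest BALB-RAG OVA array was at the PBS mean to 2 decimals. On the probe sets used, the BALB-RAG OVA and PBS arrays overlapped for Fos and Klf4. The share of all tested genes with this pattern is not given, so nothing is read from the count of members. The difference of the responses (BALB-RAG minus BALB/c, log2) was 2.08 for Fos, 1.75 for Klf4 and 2.10 for Maff, and, as the members were chosen on these arrays, it was not tested. By the interaction term of limma the responses differed for Jun (0.99), Klf6 (0.94), Ier2 (1.06), Btg2 (1.73), Ccn2 (1.40), Csrnp1 (2.49), Cebpd (2.92), Mcl1 (0.71) and Errfi1 (2.70), and in the other direction for Bhlhe40 (−1.44) and Rgs1 (−3.30).

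Single arrays stood apart from the rest of their group by Dixon's criterion in 8 of 88 groups of 4 tested over 22 genes, and chance gives about 1 in 20. Among the members these were Nr4a1 in BALB-RAG PBS replicate 2 (8.05, high), Nr4a1 in BALB/c OVA replicate 1 (8.22, high) and Klf4 in BALB/c PBS replicate 2 (11.22, low). The other 5 were Egr2 (5.21, low) and Bhlhe40 (8.56, high) in BALB-RAG OVA replicate 2, Socs3 in BALB-RAG OVA replicate 1 (5.53, low), Tnfaip3 in BALB-RAG PBS replicate 2 (6.81, high) and Csrnp1 in BALB/c PBS replicate 2 (6.69, low). Replicate 2 of a group accounts for 6 of the 8.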

How the results depend on the processing

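With the labels as deposited, the values under the members' names were those of other rows and the differences were lost or reversed: in BALB/c (OVA minus PBS) 0.20 for Fos, 0.43 for Nr4a1, 1.86 for Klf4 and 0.0169 for Maff; on BALB-RAG arrays −0.11 for Fos, −1.01 for Klf4 and 0.0075 for Maff; for the difference of responses −0.32, −0.44, −2.87 and −0.0094; after PBS (BALB-RAG minus BALB/c) −0.0696, −0.12, 0.82 and 0.0533; and after OVA −2.04 for Klf4. With the second stretch read 47 rows above, the shift handed down with the gene list, Fos gave 0.0525 in BALB/c, 0.0122 for the difference of responses and −0.25 after PBS. The shift of 47 rows below, used in the main results, was the one chosen after seeing the data. Within replicates 1 and 2 and within 3 and 4, the difference of responses was 1.03 and 3.12 for Fos, 0.71 and 4.09 for Nr4a1 and 1.44 and 2.05 for Klf4; the BALB/c response was −1.24 and −4.17 for Nr4a1 and −0.99 and −1.65 for Klf4; and the PBS difference between the lines was −1.38 and −4.20 for Nr4a1 and −0.99 and −1.68 for Klf4.

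Leaving out 1 array at a time kept the sign of each member's difference except Maff after OVA (−0.02 to 0.48). The BALB/c response ranged from −1.68 to −0.89 for Fos, −3.45 to −2.07 for Nr4a1, −1.51 to −1.22 for Klf4 and −1.18 to −0.69 for Maff.

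The count of all genes called in BALB/c was 1128, and 1764 with the replicate block, 1820 with a term for replicates 1 and 2 against 3 and 4 and 547 within replicates 3 and 4. On BALB-RAG arrays it was 12, and 21 with a filter at log2 6, 22 with an offset of 16, 21 with median centring, 26 with quantile normalisation (15 higher, 11 lower, against 10 and 2), 5 with only the 8 arrays, 41 with the replicate block, 67 with that term, 3 within replicates 1 and 2, 5 within replicates 3 and 4, and 6 to 42 without 1 array (42 without BALB-RAG OVA replicate 2, whose lymphocyte transcripts go against its title; 6 without replicate 4). For the difference of responses it was 618, and 1152 with the block, 1214 with the term and 212 within replicates 3 and 4. After PBS it was 284, and 142 with only the 8 arrays, 609 with the block, 635 with the term, 52 within replicates 3 and 4 and 174 to 397 without 1 array; after OVA it was 1729, and 693 within replicates 3 and 4. Of the 32 immediate early genes, 4 were called in BALB/c within replicates 1 and 2. On BALB-RAG arrays 1 was called with only the 8 arrays, 0 within either pair of replicates and 0 to 3 without 1 array. For the difference of responses 4 and 6 were called within the pairs of replicates, and after PBS 3 with only the 8 arrays and 3 within replicates 1 and 2.

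The labels give the replicate numbers no shared source, 6 of 16 arrays correlated best with an array of their own number, and of 24 same-numbered pairs 23 had an r of deviations over 0.1 and 1 had 0.0253. As the labels name no shared source and not every pair was over 0.1, the numbers were not taken as pairing. The deviations of same-numbered arrays were nevertheless related (median r 0.300). Each group holds the same replicate numbers, so a block on them cannot change a difference of group means (Fos −1.41 in BALB/c). That the members' differences stayed as they were is therefore no check on them. With the block 13, 2, 12, 12 and 14 of the 32 were called, in the order of the comparisons above. Of all values recomputed, 694 kept their direction and size class, 60 moved and 14 reversed. The 694 include settings that could not change a member's difference, namely the block and, between 2 groups, leaving out an array of another group. The tally is therefore no measure of stability.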
